A study of Mus musculus with 9 samples.

Results

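Antibody transcripts in mouse liver are described here through 9 genes: Igha, Ighm, Igkc, Igkj3, Iglc2, Jchain, Mzb1, Cd79a and Cd79b. They were taken from a liver expression table by matching their Ensembl identifiers to these symbols, and all 9 were present among 54007 genes or gene models. The members were chosen by measured values in these libraries. Igkc and Jchain were known to be higher on a high-fat diet, and Igha was known to be lower when a bacterium was added to that diet. Their values in these comparisons are therefore a description, with no test of the members themselves.

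The livers came from C57BL/6 mice at postnatal day 98, from a study of a gut commensal and obesity in which mice entered at 6 weeks of age, 15 to a group. Control mice gave libraries numbered 1, 2 and 4. Mice on a high-fat diet, called HFD below, gave libraries 1, 2 and 3. Mice on the same high-fat diet that also received the bacterium *Papillibacter cinnamivorans* by gavage, called HFD+Pc, gave libraries 1, 3 and 4. No genotype, transgene or sham gavage is named for any group, and sex is not given. The labels do not say if each library is from a single mouse, so spreads and p-values refer to these libraries and may be partly technical. The comparisons ask how the diet, and the bacterium given with it, were reflected in liver RNA.

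An antibody is built from heavy chains and light chains. B cells carry it on the surface as IgM or IgD, held by the signalling partners CD79A and CD79B, and after class switching they can make IgG or IgA instead. Plasma cells, the end stage of this lineage, secrete antibody in bulk and join IgA and IgM into polymers with the J chain. In the liver, B-lineage cells lie among the sinusoids and around portal tracts, and polymeric IgA is carried into bile.

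Expression is given in FPKM, a count of sequenced fragments scaled for gene length and library size. Comparisons between genes depend on the lengths used. The read counts behind the values could be recovered from their step size, and the 9 libraries held 16558199 to 18925724 such reads. In a gene of 1 kb, 3 reads, the limit that a count of 0 allows, correspond to 0.160 to 0.179 FPKM. That limit covers counting error only. Hepatocyte genes, 10 of them in the table, summed to 37290 to 57080 FPKM, as fits liver. The plasma cell side of the member list is carried by Jchain. The plasma cell receptor gene Tnfrsf17 had 0 to 2 reads in a library, and the plasma cell regulator Prdm1 stayed at or below 0.256 FPKM. Irf4, another such regulator, was too low to test, with 12, 11 and 19 reads in control, 29, 22 and 26 in HFD and 11, 3 and 11 in HFD+Pc. The members are called immunoglobulin and B-lineage genes below. In whole tissue, fewer cells of a type and less RNA per cell cannot be told apart.

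The kappa light chain constant gene Igkc, on chromosome 6 and the most abundant member, stood at 22.6, 16.9 and 17.9 FPKM in control libraries 1, 2 and 4. In HFD libraries 1, 2 and 3 it stood at 46.3, 42.2 and 71.8 FPKM, and in HFD+Pc libraries 1, 3 and 4 at 29.8, 24.8 and 21.04 FPKM. All 3 HFD libraries lay above all 6 others, and control and HFD+Pc overlapped. The group means were 19.1 ± 3.05, 53.4 ± 16.0 and 25.2 ± 4.39 FPKM (SD, n = 3), so the HFD mean was 2.79 times the control mean and the HFD+Pc mean was 0.472 times the HFD mean.

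Jchain, on chromosome 5, encodes the joining chain of polymeric IgA and IgM. Its level was 1.51, 0.888 and 1.25 FPKM in control, 3.01, 2.45 and 4.16 FPKM in HFD and 1.75, 1.19 and 1.32 FPKM in HFD+Pc. As with Igkc, every HFD library lay above every other library, and HFD library 3 was the highest of all. The means were 1.22 ± 0.311, 3.21 ± 0.870 and 1.42 ± 0.295 FPKM (SD, n = 3). HFD was 2.64 times control, and HFD+Pc was 0.442 times HFD.

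Igha, on chromosome 12, encodes the constant part of the IgA heavy chain. Control libraries had 4.45, 3.00 and 2.47 FPKM, HFD libraries 5.80, 7.42 and 7.29 FPKM, and HFD+Pc libraries 2.96, 3.47 and 2.26 FPKM. The HFD libraries again lay above the rest, here by a narrower gap, from 4.45 FPKM in control library 1 to 5.80 FPKM in HFD library 1. The means were 3.31 ± 1.03, 6.84 ± 0.901 and 2.90 ± 0.604 FPKM (SD, n = 3). The HFD mean was 2.07 times the control mean, and the HFD+Pc mean was 0.424 times the HFD mean.

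Ighm, the IgM heavy chain constant gene on chromosome 12, did not share this order. It had 9.30, 3.99 and 6.48 FPKM in control, 9.62, 4.20 and 9.27 FPKM in HFD and 5.94, 6.26 and 4.99 FPKM in HFD+Pc. The lowest HFD library was below all HFD+Pc libraries and the highest control library was close to the highest HFD library, so the 3 groups overlapped. The means were 6.59 ± 2.65, 7.70 ± 3.03 and 5.73 ± 0.661 FPKM (SD, n = 3).

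**Figure D1:**
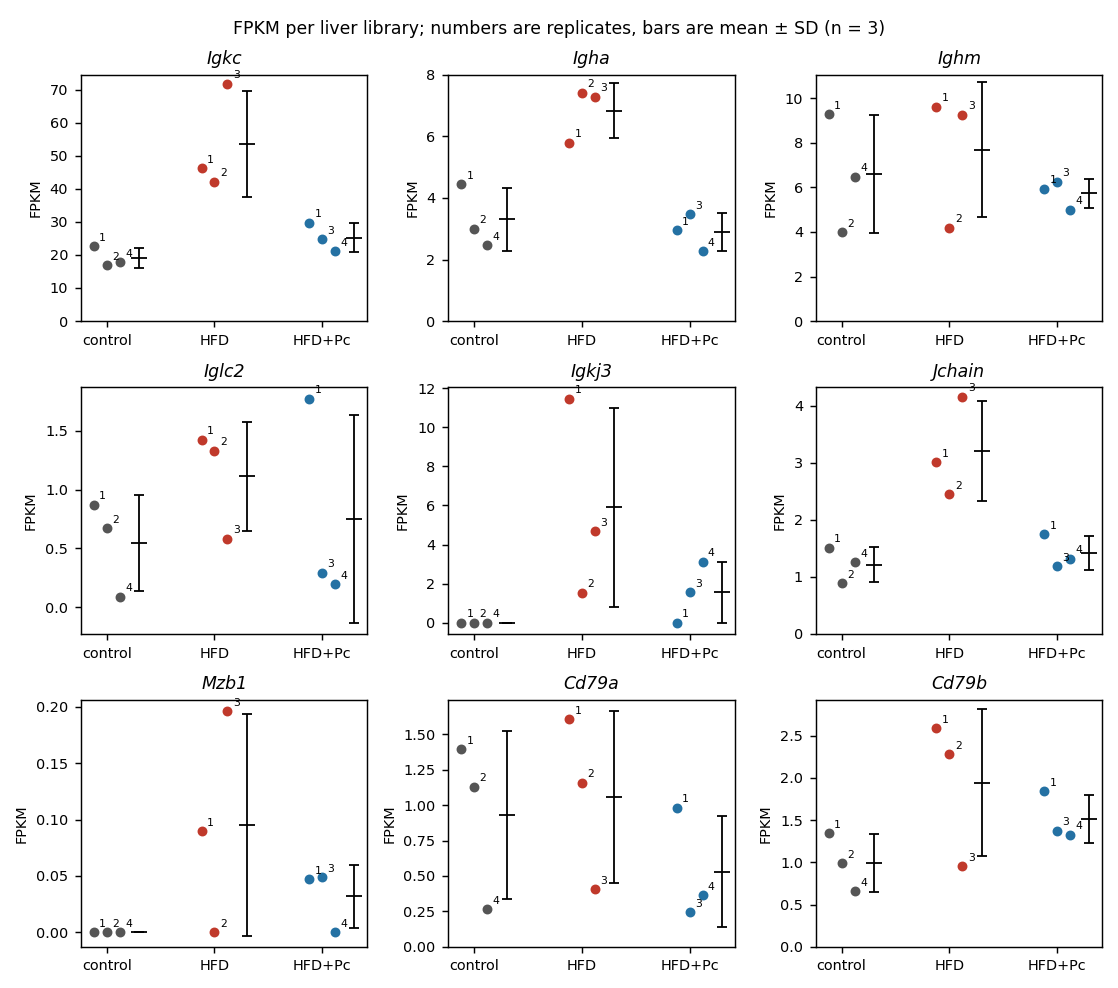
FPKM of the 9 members (vertical axis, linear, a separate scale for each gene) in control, HFD and HFD+Pc liver libraries; each point is a library labelled with its replicate number, and bars are the mean ± SD of 3 libraries. In the panels of Igkc, Igha and Jchain the 3 HFD points lie above all others, whereas the groups overlap for Ighm, Iglc2, Cd79a and Cd79b.

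Igkj3 is a kappa joining segment of 38 bases on chromosome 6. In the B cell genome such a segment is recombined to a variable segment, and its transcript is then spliced to Igkc. The 5 kappa joining segments are shown because Igkj3 departs from the others at the start of the motif that in the protein reads phenylalanine and then glycine. Capitals mark that place, which reads TTCGG in 4 of the 5 and TTCAG in Igkj3, and mouse Igkj3 is described as not used in functional kappa chains. The sequences are those of GENCODE M21 on GRCm38.
Igkj1: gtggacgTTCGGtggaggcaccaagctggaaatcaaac
Igkj2: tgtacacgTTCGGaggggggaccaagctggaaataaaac
Igkj3: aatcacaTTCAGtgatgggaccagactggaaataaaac
Igkj4: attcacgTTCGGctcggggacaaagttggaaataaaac
Igkj5: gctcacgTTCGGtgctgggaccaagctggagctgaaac

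Igkj3 had 0 reads in each of the 3 control libraries, 8, 1 and 3 reads in the HFD libraries and 0, 1 and 2 reads in the HFD+Pc libraries. In FPKM the HFD libraries read 11.5, 1.53 and 4.70 and the HFD+Pc libraries 0, 1.57 and 3.12. The segment is so short that 1 read is worth 1.41 to 1.57 FPKM, against 0.02004 to 0.0224 FPKM in Igha. Its high FPKM values thus rest on 12 reads in HFD. The HFD mean was 4.02 times a floor of 3 reads over the control group. That floor allows for counting error in control only, not for the error and spread of the HFD reads, so it gives no lower limit of the change. Reads over all 5 joining segments overlapped between groups, with 3, 5 and 0 in control, 8, 1 and 3 in HFD and 2, 4 and 12 in HFD+Pc. Igkj2 had 5 reads in control library 2 and none in any HFD library, and Igkj4 had 1, 1 and 5 reads in the HFD+Pc libraries and none elsewhere.

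Iglc2 is a lambda light chain constant gene on chromosome 16, with close relatives in Iglc1 and Iglc3. The first 60 bases from a common start in the 3 genes are shown because they bear on which gene a read can be assigned to, again from GENCODE M21 on GRCm38. In Iglc1 and Iglc3 capitals mark bases that differ from Iglc2, and in Iglc2 they mark positions where either relative differs.
Iglc1: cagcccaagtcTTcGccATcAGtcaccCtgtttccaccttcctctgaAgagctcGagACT
Iglc2: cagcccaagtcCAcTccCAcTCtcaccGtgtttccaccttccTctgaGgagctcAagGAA
Iglc3: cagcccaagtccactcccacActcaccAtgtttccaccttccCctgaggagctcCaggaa

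In these 60 bases Iglc1 differed from Iglc2 at 13 positions and Iglc3 at 4. Of all 50-base windows in Iglc2 transcripts, 7.65% occurred without change in Iglc3 and none in Iglc1, so reads of Iglc2 and Iglc3 may be split between them in a way the sources do not state. Iglc2 had 0.874, 0.673 and 0.0903 FPKM in control, 1.43, 1.33 and 0.583 FPKM in HFD and 1.78, 0.293 and 0.194 FPKM in HFD+Pc. The highest library of all was an HFD+Pc library and the groups overlapped. No library had more than 19 reads of Iglc2.

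Mzb1 encodes an endoplasmic reticulum protein that helps marginal zone B cells and plasma cells assemble and secrete antibody. It had 0 reads in every control library, 2, 0 and 4 reads in the HFD libraries and 1, 1 and 0 reads in the HFD+Pc libraries. At this depth no difference in Mzb1 could be detected, and it did not enter the test. Of the 50-base windows of its transcripts, 53.5% also occur in transcripts annotated to a neighbour, so a part of even these reads may not be its own.

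Cd79a, on chromosome 7, and Cd79b, on chromosome 11, encode the signalling pair of the B cell receptor. Cd79a had 1.39, 1.13 and 0.266 FPKM in control, 1.61, 1.16 and 0.408 FPKM in HFD and 0.981, 0.246 and 0.366 FPKM in HFD+Pc. Cd79b had 1.35, 0.987 and 0.657 FPKM in control, 2.59, 2.28 and 0.956 FPKM in HFD and 1.84, 1.38 and 1.32 FPKM in HFD+Pc. The groups overlapped for both genes. Within HFD, library 3 was the lowest for Cd79a and Cd79b and the highest for Igkc and Jchain. Cd79a was 3.47% and 2.75% of the Igkc level in HFD libraries 1 and 2 and 0.569% in HFD library 3.

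Across many genes the groups were compared with limma on log2(FPKM + 1), for genes that reached 1 FPKM in 3 or more libraries, at an adjusted p of 0.05. A difference on this scale understates the change of genes at low FPKM. Of the 9 members 8 entered the test, all but Mzb1. HFD against control called 1095 of 10988 genes, 9.97% in either direction, 4.61% as higher and 5.35% as lower. Among the members 4 of 8 passed, all higher in HFD, and the rule used this contrast for Igkc and Jchain, so nothing is read from that share. The differences were 1.41 ± 0.21 for Igkc, 0.91 ± 0.16 for Jchain, 0.88 ± 0.18 for Igha and 2.50 ± 0.60 for Igkj3 (SE). Igkj3, at 0 in all controls, entered the test only through the HFD libraries where it was high. These are also the 4 members whose HFD and control libraries did not overlap, beside 16.5% of all tested genes with HFD above control and 16.4% below. Ighm, Iglc2, Cd79a and Cd79b differed by 0.19 ± 0.31, 0.46 ± 0.34, 0.10 ± 0.30 and 0.53 ± 0.22 and did not pass. The median over the 8 members was 0.70, beside -0.00 over all tested genes.

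The calls of Igkc and Jchain, which the choice of members used, were made in all 9 fits that each left out a library, and this lends them no independent support. Igha did not pass without control library 2, HFD library 2 or HFD library 3, with differences of 0.74 to 1.07 over the 9 fits. With no filter on low values neither Igha (limma adjusted p = 0.0732) nor Jchain (limma adjusted p = 0.0583) passed. Under the replicate block Igha did not pass either (limma adjusted p = 0.0721). Igkj3 passed in only 3 of the 9 fits and did not pass in limma-voom on the recovered reads or under the looser filters on low values. It failed without any 1 of the control libraries, HFD library 1, HFD library 3 or HFD+Pc library 3.

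HFD+Pc against HFD called 69 genes, 0.628% of those tested in either direction and 0.446% as lower. It shares the HFD libraries with the comparison above, so the values of the members in the 2 comparisons are not independent. Igha was the 1 member of 8 that passed, lower by -1.01 ± 0.18 in HFD+Pc. The choice of members used this contrast for Igha, so nothing is read from its call or from that share. Igkc differed by -1.03 ± 0.21 and Jchain by -0.79 ± 0.16 without passing. These 3 members had HFD+Pc libraries wholly below the HFD libraries, beside 9.56% of all tested genes, and 10.2% lay wholly above. The call of Igha held in 1 of the 9 fits that left out a library, the fit without control library 1, although its difference stayed between -1.12 and -0.89. When FPKM were rescaled to the plain read totals, which was chosen after seeing the data, 3 members passed in place of 1, Igkc and Jchain joining Igha. The other members differed by -1.36 ± 0.60 for Igkj3, -0.30 ± 0.31 for Ighm, -0.35 ± 0.34 for Iglc2, -0.41 ± 0.30 for Cd79a and -0.19 ± 0.22 for Cd79b. The member median was -0.60, beside 0.01 over all tested genes.

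HFD+Pc against control called 2538 genes, 23.1% of those tested, of which 11.1% were higher and 11.9% lower. None of the 8 tested members was among them. None had groups that did not overlap either, beside 22.1% of all tested genes with HFD+Pc above control and 20.8% below. The differences were 0.38 ± 0.21 for Igkc, 0.13 ± 0.16 for Jchain, -0.13 ± 0.18 for Igha and 1.13 ± 0.60 for Igkj3. They were -0.12 ± 0.31 for Ighm, 0.11 ± 0.34 for Iglc2, -0.31 ± 0.30 for Cd79a and 0.34 ± 0.22 for Cd79b. The member median was 0.12, beside 0.01 over all tested genes.

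**Figure D2:**
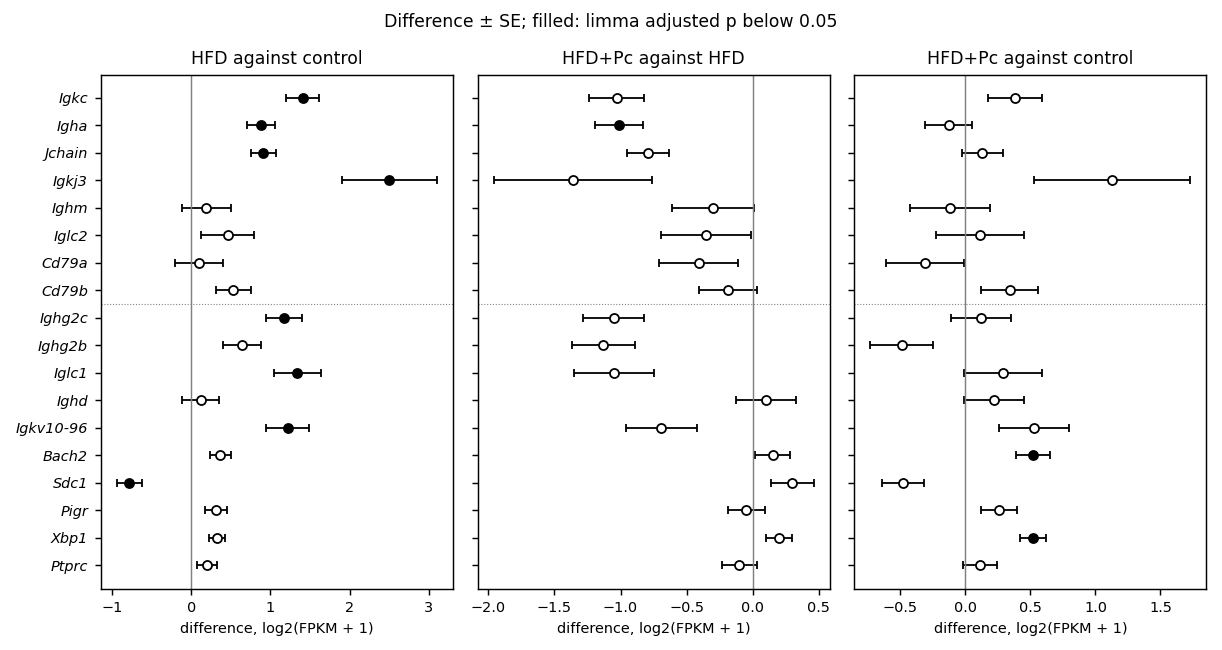
Difference between groups on the log2(FPKM + 1) scale (horizontal axis) ± SE for the 8 tested members, above the dotted line, and 10 other genes of the antibody system, below it, in the 3 comparisons; filled points have a limma adjusted p below 0.05. Igkc, Igha, Jchain and Igkj3 are filled in HFD against control, Igha alone in HFD+Pc against HFD, and no member in HFD+Pc against control; the members were chosen with these contrasts known.

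The other immunoglobulin and B-lineage genes were read from lists of heavy and light chain constant genes, rearranging segments, B cell genes and plasma cell genes. Outside the members these lists held 425 genes in the table, of which 23 reached the level for testing. In HFD against control 3 of the 23 rose and 1 fell, beside 4.61% and 5.35% of all tested genes. The IgG heavy chain gene Ighg2c had 2.78, 2.75 and 2.13 FPKM in control, 4.89, 6.94 and 9.78 FPKM in HFD and 3.84, 3.02 and 1.92 FPKM in HFD+Pc. It was higher in all 3 HFD libraries than in any control library, by 1.17 ± 0.23 (limma adjusted p = 0.021). Between Ighg2c and its relative Ighg2b, 5.49% of the 50-base windows of Ighg2c were shared. Ighg2c did not pass without any 1 of the control libraries or HFD library 2.

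The lambda constant gene Iglc1 had 0.589, 0.389 and 0.365 FPKM in control, 5.40, 1.80 and 1.70 FPKM in HFD and 0.504, 0.789 and 1.04 FPKM in HFD+Pc. All HFD libraries were above all others, by 1.34 ± 0.30 against control (limma adjusted p = 0.0279), on 13 to 45 reads in an HFD library. Iglc1 reached the level for testing only through the HFD libraries where it was high, since 1 other library came to 1 FPKM, so its call depends on that selection. The kappa variable segment Igkv10-96, with 10, 1 and 3 reads in control and 17, 13 and 23 reads in HFD, was higher by 1.22 ± 0.27 (limma adjusted p = 0.0272). Iglc1 lost its call without any 1 of the control libraries, and Igkv10-96 without control library 2 or 4 or HFD library 1 or 3. Sdc1, the syndecan that marks plasma cells but is also made by hepatocytes, fell from 84.2 FPKM in control to 48.4 FPKM in HFD (difference -0.78 ± 0.16, limma adjusted p = 0.0199), a call not made without control library 1 or 2 or HFD library 1.

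Of the 23, none passed in HFD+Pc against HFD by limma on FPKM or by limma-voom. In that comparison limma on FPKM called 0.628% of all tested genes, so the absence of calls does not set the 23 apart. Ighg2b had 2.38, 1.41 and 3.998 FPKM in HFD and 0.619, 0.646 and 0.464 FPKM in HFD+Pc, all 3 below HFD, a difference of -1.13 ± 0.24 (limma adjusted p = 0.0681). Ighg2c differed by -1.05 ± 0.23 (limma adjusted p = 0.0854). Against control, where 11.1% of all tested genes were called higher, 2 of the 23 passed in HFD+Pc, both higher. These were Bach2, a regulator that keeps B cells from becoming plasma cells, at 0.52 ± 0.13 (limma adjusted p = 0.0183; not called without control library 2), and the joining segment Igkj4 at 1.94 ± 0.41 (limma adjusted p = 0.0117) on 7 reads in all. Bach2 also lay above control in every HFD library, by 0.37 ± 0.13 (limma adjusted p = 0.0925, limma-voom adjusted p = 0.0275). Between HFD+Pc and HFD it differed by 0.15 ± 0.13 and did not pass. Igkj4, at 0 in every control and HFD library, reached the level for testing only through the HFD+Pc libraries, as did Bach2, so among genes tested in this way a higher HFD+Pc value was favoured. Igkj4 did not pass in limma-voom on the reads.

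Summed over the 8 heavy chain constant genes in the table, the level was 15.3 ± 4.10 FPKM in control, 27.1 ± 6.53 FPKM in HFD and 14.1 ± 2.73 FPKM in HFD+Pc (SD, n = 3). Per library the sums ran from 11.8 to 19.8, from 21.9 to 34.5 and from 11.0 to 16.3 FPKM. Igha, chosen with its lower HFD+Pc level known, is part of this sum and of the shares below, which are a description. The HFD libraries were above the others in this sum. Ighm and Ighd, the classes of unswitched B cells, held 56.4%, 43.0% and 51.9% of it in control, 46.7%, 25.6% and 29.6% in HFD and 51.6%, 50.7% and 56.0% in HFD+Pc. HFD and HFD+Pc did not overlap in this share, while HFD library 1 lay among the controls. The IgG genes held 21.2%, 31.6% and 30.8% in control, 30.1%, 40.5% and 49.2% in HFD and 30.2%, 26.2% and 23.5% in HFD+Pc. The Igha share was 21.8% ± 4.06, 26.1% ± 6.84 and 20.6% ± 2.44 (SD, n = 3), with overlap between all 3 groups.

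The HFD libraries differed in which class was high. HFD library 2 had the highest share of Igha, 33.9%, and an Igha level 1.77 times its Ighm level, against 0.603 and 0.786 times in HFD libraries 1 and 3. Such shares and ratios depend on the lengths behind FPKM, 2668 bases for Igha and 1886 for Ighm. In HFD libraries 1, 2 and 3 Igha had 284, 340 and 327 reads and Ighm 333, 136 and 294. HFD library 3 held the most IgG. Ighg1 had 130 reads there, against 11 and 21 in HFD libraries 1 and 2, 7, 0 and 16 in control and 9, 8 and 5 in HFD+Pc. HFD library 1 had the highest Iglc1 level, 5.40 FPKM. Ighd was between 0.873 and 2.44 FPKM with overlap between groups, Ighg3 did not exceed 0.250 FPKM, and Ighe and Iglc4 were listed at 0 throughout.

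**Figure D3:**
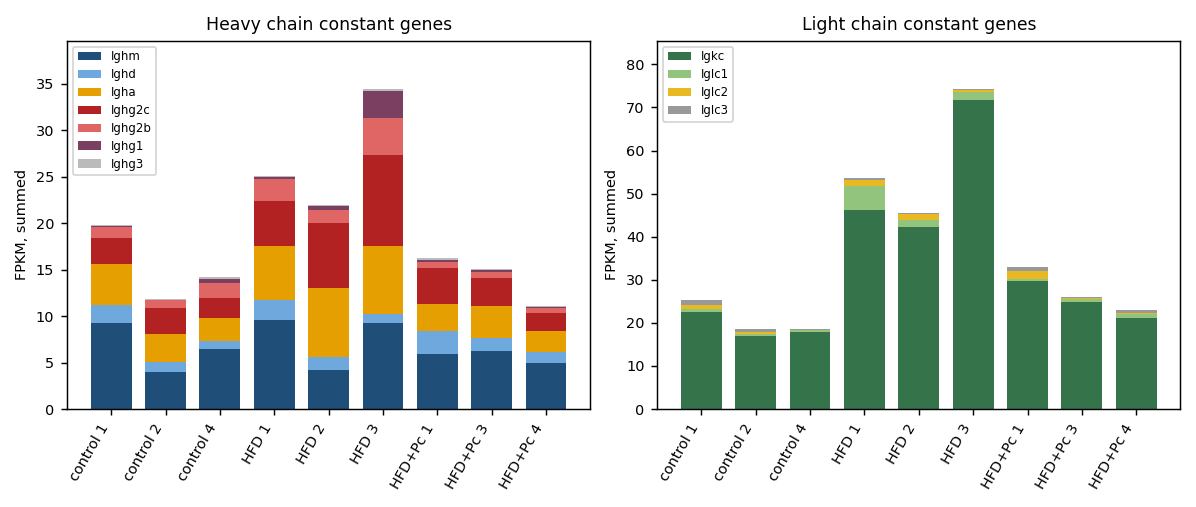
Summed FPKM (vertical axes, linear from 0) of heavy chain constant genes, left, and light chain constant genes, right, in each of the 9 libraries, with colours for genes. The heavy chain sum reaches 21.9 to 34.5 FPKM in HFD and at most 19.8 FPKM elsewhere, and the IgG genes are largest in HFD library 3; Igkc forms most of the light chain sum in every library.

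Light chain constant genes summed to 20.8 ± 3.95 FPKM in control, 57.9 ± 14.8 FPKM in HFD and 27.3 ± 5.20 FPKM in HFD+Pc (SD, n = 3). Igkc made up 86.2% to 96.6% of that sum in every library. The ratio of light to heavy chain FPKM was 1.28, 1.57 and 1.31 in control, 2.15, 2.08 and 2.16 in HFD and 2.03, 1.73 and 2.08 in HFD+Pc. Control libraries were below all 6 libraries of the high-fat diet in this ratio. Igkc, which forms most of the light chain sum, was chosen with its higher HFD level known. The ratio is therefore a description and was not tested. Jchain relative to the sum of Igha and Ighm was 0.110, 0.127 and 0.140 in control, 0.195, 0.211 and 0.251 in HFD and 0.197, 0.122 and 0.182 in HFD+Pc. The HFD ratios were above control, and HFD+Pc overlapped with both. Jchain was likewise chosen with its higher HFD level known, so nothing is read from this order.

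Variable segments were not used in the choice of members, but they lie on the same mRNAs as the constant genes, so they are not independent of Igkc, Igha and Ighm. The table held 348 of them, 185 heavy chain Ighv, 160 kappa Igkv and 3 lambda Iglv segments. Of these 163 were above 0 in at least 1 library and 6 in all 9. Segments detected numbered 74, 47 and 62 in control, 83, 89 and 107 in HFD and 69, 64 and 61 in HFD+Pc. Every HFD library had more than every other library. Recovered reads numbered 17434927 to 18925724 in control, 16558199 to 16919753 in HFD and 17045069 to 17357674 in HFD+Pc. The part of depth in these counts was not tested. The number detected is not independent of the reads on the segments, given below. The means were 61 ± 13.5, 93 ± 12.5 and 64.7 ± 4.04 segments (SD, n = 3). An exact two-sided permutation test gave p = 0.1 for HFD against control and for HFD+Pc against HFD, which is the smallest p that 3 libraries against 3 can give, and p = 0.8 for HFD+Pc against control.

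Reads on variable segments numbered 209, 135 and 156 in control, 329, 362 and 448 in HFD and 226, 179 and 151 in HFD+Pc. Per 1000000 recovered reads these are 11.0, 7.74 and 8.66 in control, 19.4, 21.8 and 27.1 in HFD and 13.0, 10.5 and 8.75 in HFD+Pc. HFD library 3 was again the highest. No single segment held more than 13.3% of the variable segment reads of a library, so the HFD values were spread over many segments. Windows shared between variable segments were not counted, and the sources do not state how reads matching several segments were assigned. The spread may therefore in part reflect read assignment. Igkv1-117 held that highest share, 18 reads in control library 2. Kappa segments separated HFD from the other libraries, with 207.7 ± 30.4 reads in HFD, 89.0 ± 19.0 in control and 83.0 ± 16.1 in HFD+Pc (SD, n = 3). Heavy chain segments had 146.3 ± 40.1, 67.7 ± 19.4 and 91.7 ± 22.9 reads in the same order, and HFD overlapped with HFD+Pc. Among single segments with the most signal, Iglv1 had 9, 4 and 5 reads in control, 27, 14 and 9 in HFD and 8, 12 and 1 in HFD+Pc. Ighv1-80 had 0, 3 and 4 reads in control, 3, 20 and 16 in HFD and 7, 8 and 13 in HFD+Pc.

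**Figure D4:**
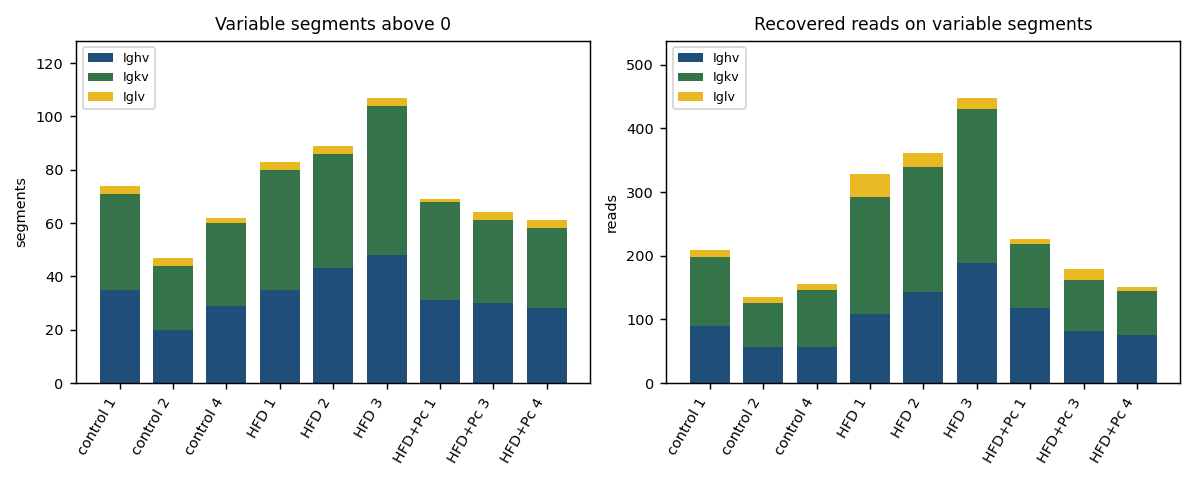
Number of variable segments above 0 (left) and reads recovered on them (right) in each of the 9 libraries, with colours for heavy chain (Ighv), kappa (Igkv) and lambda (Iglv) segments. HFD libraries hold 83 to 107 detected segments and 329 to 448 reads, and the other 6 libraries 47 to 74 segments and 135 to 226 reads.

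Genes of other cells were read beside the members, from lists described by their counts. The list of 27 B cell genes, Cd79a and Cd79b included, summed to 11.2 to 14.1 FPKM in control, 11.9 to 20.4 FPKM in HFD and 13.8 to 16.7 FPKM in HFD+Pc, with overlap. The 16 plasma cell genes, most of their sum being Sdc1, came to 83.2 to 106.1 FPKM in control, 63.0 to 68.9 FPKM in HFD and 63.4 to 81.8 FPKM in HFD+Pc. Of 4 tested in HFD against control, 2 had a positive and 2 a negative difference. Jchain was called higher and Sdc1 lower, beside 4.61% and 5.35% of all tested genes. The B cell surface gene Ms4a1 was at most 0.398 FPKM and too low to test. None of 6 tested B cell genes passed in HFD against control, 5 with a positive and 1 with a negative difference. Among 9 leukocyte genes none passed there either, 6 with a positive and 3 with a negative difference. Over all tested genes 9.97% passed, so the absence of calls in lists this short does not show that they were unchanged. The leukocyte sum was 43.7 to 54.1 FPKM in control, 46.7 to 66.5 FPKM in HFD and 41.3 to 57.2 FPKM in HFD+Pc. HFD library 3, highest for Igkc, had the lowest leukocyte sum of the HFD libraries. The pan-leukocyte gene Ptprc had 1.21, 1.55 and 1.39 FPKM as group means in control, HFD and HFD+Pc and passed in none of the comparisons, and the T cell gene Cd3e averaged at most 0.209 FPKM.

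Marker lists of other tissues and cells were read in the same way. The 7 lymph node stroma genes summed to 1.82 to 2.23 FPKM in control, 0.926 to 1.71 FPKM in HFD and 1.43 to 2.33 FPKM in HFD+Pc, with 2 of the 7 at 0 in every library. The HFD sums were below control, and HFD+Pc overlapped with both. Only 1 of the 7 was tested, and it passed in none of the comparisons. The 9 adipocyte genes, none of them at 0 in every library, summed to 6.33 to 7.26 FPKM in control. The sum was 12.5 to 34.2 FPKM in HFD and 8.42 to 13.2 FPKM in HFD+Pc. Cfd alone gave 21.8, 9.92 and 5.225 FPKM of it in HFD libraries 1, 2 and 3, and at most 0.128 FPKM in control. Of 4 genes tested in HFD against control, 2 had a positive and 2 a negative difference, and only Cfd passed. Cfd reached the level for testing only through libraries of the high-fat diet, where it was high. Within HFD libraries 1, 2 and 3 the adipocyte sum was 34.2, 19.1 and 12.5 FPKM. Cd79a, Cd79b and Iglc1 were likewise highest in HFD library 1, whereas Igkc and Jchain were highest in HFD library 3. The neutrophil list, 1 of 13 genes at 0 throughout, ran from 4.45 to 11.3 FPKM in control, 7.01 to 20.2 in HFD and 7.99 to 8.80 in HFD+Pc. In HFD libraries 1, 2 and 3 it summed to 14.8, 7.01 and 20.2 FPKM, the same order as Igkc. Other lists had that order too, such as the intestinal list at 110.5, 96.7 and 120.6 FPKM. Nothing is read from an order of 3 libraries. The hepatocyte sum was 54110 to 55390 FPKM in control, 37290 to 40940 FPKM in HFD and 42340 to 57080 FPKM in HFD+Pc, so it was lowest in the HFD libraries, where Igkc, Jchain and Igha were highest. Of its 10 tested genes 9 had a negative difference in HFD against control, with Apoa1 called lower, and 9 a positive one in HFD+Pc against HFD, with none called. The part of the adipocyte, neutrophil and hepatocyte lists in the member values was not tested.

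The remaining lists held few calls in HFD against control, where 9.97% of all tested genes were called. None of 12 macrophage, 6 T and NK cell, 3 neutrophil and 5 erythrocyte genes tested passed there, nor the 1 exocrine pancreas gene. Lgr5 was the 1 of 3 tested genes on the intestinal list that was called higher. It was at most 0.576 FPKM in control and reached the level for testing only through libraries of the high-fat diet, where it was high. None of the lists in this paragraph, nor the leukocyte, adipocyte and hepatocyte lists, held a call in HFD+Pc against HFD. That comparison called 0.628% of all tested genes, and the absence of calls in lists this short does not set them apart from that share. Called against control in HFD+Pc were Lgr5, Cela1, Cfd, Adrb3 and Serpina1a as higher, and C1qa, C1qc, Hba-a2, Hbb-bs, Hbb-bt, Cd52, Lipe, Apoa1 and Hnf4a as lower.

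Genes for antibody handling by the liver were read next. Pigr, the receptor that carries polymeric IgA across hepatobiliary cells, averaged 331.9 FPKM in control, 414.4 FPKM in HFD and 399.4 FPKM in HFD+Pc, with differences of 0.31 ± 0.14, -0.05 ± 0.14 and 0.26 ± 0.14 in the 3 comparisons and no limma adjusted p below 0.197. None of the 8 tested genes of antibody transport and Fc receptors passed in any comparison, beside 9.97%, 0.628% and 23.1% of all tested genes. The B cell survival factors Tnfsf13b and Tnfsf13 averaged at most 0.0900 and 0.150 FPKM and were not tested. Cxcl12, a chemokine that retains plasma cells, fell in HFD against control, from 56.7 to 39.1 FPKM (difference -0.52 ± 0.12, limma adjusted p = 0.032; not called without control library 1 or 2 or any 1 HFD library). Tgfb1, Icam1 and Cxcl12 were the 3 genes of 6 called lower in HFD+Pc against control on that list, beside 11.9% of all tested genes.

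Secretory pathway genes, which plasma cells share with hepatocytes, summed to 410 to 463.5 FPKM in control, 471.4 to 545.9 FPKM in HFD and 508.6 to 665.5 FPKM in HFD+Pc. None of 17 passed in HFD against control, beside 9.97% of all tested genes. Between HFD+Pc and control 5 rose, namely Dnajb9, Fkbp11, Hspa5, Manf and Xbp1, beside 11.1% of all tested genes. In HFD+Pc against HFD, where 0.182% of all tested genes rose, 1 rose, Dnajb9 (difference 0.77 ± 0.11, limma adjusted p = 0.0244). Dnajb9 was not called there without HFD library 1 or 2 or any 1 HFD+Pc library. Xbp1, the unfolded protein response factor needed for plasma cell secretion, had 38.8, 31.7 and 36.2 FPKM in control, 44.0, 48.9 and 41.4 FPKM in HFD and 51.0, 50.7 and 52.3 FPKM in HFD+Pc. Its highest group was HFD+Pc, where Igkc, Jchain and Igha were below HFD, and it passed against control by 0.52 ± 0.10 (limma adjusted p = 0.00635). Dntt, an enzyme of receptor gene assembly, was the 1 testable gene of 8 on its list, and reached that level only through the control libraries. It fell in HFD and in HFD+Pc against the shared controls, by -0.68 ± 0.14 and -0.54 ± 0.14 (limma adjusted p = 0.0233 and 0.0258), each call lost in 4 of 9 fits without a library, those without control library 1 or 4, HFD library 1 or 2, or HFD+Pc library 1 or 3.

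Outside the immunoglobulin loci the genes most like the 8 tested members over the 9 libraries were Cnih4, Gm44250, Nubpl, Mxd1, 4930480G23Rik, E2f8, Ypel5 and Sdhaf3. Their Pearson correlations with the mean standardised member level on log2(FPKM + 1) ran from 0.885 for Sdhaf3 to 0.953 for Cnih4. These describe the 9 libraries, which share the group differences and their scaling, and carry no test. Cnih4, the most alike, had 2.93, 2.65 and 2.62 FPKM in control, 3.59, 3.23 and 3.66 FPKM in HFD and 3.07, 2.73 and 2.71 FPKM in HFD+Pc. The mean standardised member level itself was 0.10, -0.68 and -0.95 in control, 1.24, 0.56 and 0.67 in HFD and 0.08, -0.44 and -0.58 in HFD+Pc, so all 3 HFD libraries were above the rest and library 1 was the highest of each group.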

How the data were processed

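Liver RNA was extracted with Trizol and sequenced on Illumina libraries, per the labels' protocols. The submitters' processing notes name HISAT2 2.0.5 and GRCm39. The authors deposited 1 table of FPKM for the 9 libraries, the unit being given per the file headers; the counting tool, its use of strand and the annotation are not given in the sources used here. Whole reads were recovered from the FPKM steps for 26123 of 26278 genes above 0 (99.4%, tolerance 0.02). The divisors behind the FPKM were 97.5% to 108.4% of the recovered totals.

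The 10988 genes reaching 1 FPKM in 3 or more libraries were tested with limma 3.58.1 in R 4.3.3 (trend and robust estimation) on log2(FPKM + 1), all 9 libraries in 1 fit, with Benjamini-Hochberg adjustment over all tested genes. The script was tested on simulated data. Tables used scipy 1.17.1, pandas 2.3.3 and numpy 2.4.6 in Python 3.11.15. Gene lengths, chromosomes and printed sequences came from GENCODE M21 (GRCm38), an earlier build, so no coordinates are given.

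Members, the 19 gene lists and tests were chosen with earlier results of these data known. The text names every member and constant gene, a panel of B-lineage genes, up to 2 passing genes of a list per direction and comparison, the segments of highest level or most reads, and the 8 genes most like the members; values of list genes that no result here turns on are left out. Alternatives were another pseudocount, other filters, scalings and fits, limma-voom on the reads, a replicate block, each library left out and, chosen after seeing the data, FPKM rescaled to plain read totals. Deviations of libraries sharing a replicate number correlated at -0.119 to 0.053, so the numbers were not taken to pair libraries.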

Additional observations from a re-analysis of the deposited data

How the results depend on the processing

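The number of members called higher in HFD against control, 4, fell to 1 with no filter (Igkc) and to 2 under the replicate block (Igkc and Jchain), and ranged from 2 to 4 when a library was left out. The number in HFD+Pc against HFD, 1, became 0 under the 0.1 FPKM filter, no filter, the replicate block and plain eBayes, 2 in limma-voom (Igha and Igkc) and 3 with plain read totals, and ranged from 0 to 1 when a library was left out. In HFD+Pc against control it was 0, and 1 under the block, Ighm. Other listed genes called in HFD against control, 4, became 0 with no filter, 0 under the block and 2 with only the groups compared, and ranged from 0 to 4 without a library. In HFD+Pc against HFD, 0 became 1 with a pseudocount of 0.1 FPKM and 1 with only the groups compared, ranging from 0 to 1. In HFD+Pc against control, 2 became 4 with the 0.1 FPKM filter and 4 with no filter, ranging from 1 to 3.

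Over all genes, 1095 calls in HFD against control became 725 with the 0.1 FPKM filter, 209 with no filter, 232 under the replicate block and 680 with only the groups compared, ranging from 332 to 1126 without a library. The 69 calls in HFD+Pc against HFD became 27, 3, 3 and 22 in the same order, 30 with plain eBayes, 120 with upper-quartile scaling and 116 with plain totals, ranging from 5 to 123, the last without HFD library 3. The 2538 calls in HFD+Pc against control became 1383 with no filter and 1058 under the block, ranging from 1396 to 2644. Of the calls in HFD against control 46.3% were higher, and 69.2% with plain totals and 70.3% in limma-voom. The cause of these moves was not tested.

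Detected variable segments differed by 32.0 (25.0 to 38.5 without a library) and -28.3 (-33.3 to -21.3) in the first and second comparison, and by 3.67 in HFD+Pc against control (-3.33 to 10.17, below 0 without control library 2). Differences that passed no threshold also crossed 0 when a library was left out. In HFD against control these were Ighm (-0.08 to 0.52), Cd79a (-0.18 to 0.35) and Ighd (-0.05 to 0.30). Between HFD+Pc and HFD they were Ighd (-0.10 to 0.27), Pigr (-0.17 to 0.07), Ptprc (-0.19 to 0.02) and Cxcl12 (-0.04 to 0.09). Between HFD+Pc and control they were Igha (-0.27 to 0.05), Ighm (-0.39 to 0.13), Iglc2 (-0.12 to 0.33) and Ighg2c (-0.05 to 0.32). The replicate block turned Jchain to -0.00 against control and Pigr and Dntt to 0.06 and -0.01 against HFD, and Cxcl12 against HFD turned to -0.05 in limma-voom and -0.04 with plain totals. All 72 single-gene results together, over 1340 alternatives, kept direction and call in 1210, lost a call in 90, gained one in 19 and changed sign in 21. Depth limits Mzb1, Igkj3, Iglc2 and single segments, which rest on few reads, and FPKM carry a library scaling that no source describes.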
